A study of Caenorhabditis elegans with 2 samples.

Results

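COMPASS is the family of protein complexes that methylates lysine 4 of histone H3 (H3K4), and 7 of its genes in Caenorhabditis elegans were examined for binding by the chromatin protein MEP-1. They encode the methyltransferases SET-2 and SET-16, the core subunits WDR-5.1, ASH-2 and RBBP-5, the DNA-binding subunit CFP-1 and the host cell factor homologue HCF-1. The genes were chosen by symbol among the 19973 nuclear protein-coding genes of the Ensembl annotation. Each was described by every region whose summit, the position of highest signal, lay from 2 kb upstream of its annotated 5′ end to its 3′ end. That span is called the gene window here.

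H3K4 methylation is written by catalytic subunits that are almost inactive alone and depend on a shared core of WDR5, ASH2 and RBBP5 proteins. Its trimethylated form marks the promoters of active genes, and monomethylation is typical of enhancers. In worms the SET-2 complex makes most of the trimethylation in embryos and the germ line, while SET-16, the counterpart of mammalian MLL3 and MLL4, works in a separate complex. MEP-1, a zinc-finger protein, acts with the Mi-2 remodeller LET-418 and the deacetylase HDA-1, and is known for keeping germline genes silent in somatic cells.

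The experiment was chromatin immunoprecipitation with sequencing (ChIP-seq) of eGFP-tagged MEP-1 from whole embryos of mixed stages and both sexes. All worms were of strain OP70, genotype unc-119(ed3) III; wgIs70, where wgIs70 is the inserted tagged mep-1, and no age is given. There was 1 group with 2 biological replicates and no second condition, so no comparison between conditions and no test was possible. Which promoter drives the tagged mep-1 copy is not stated in the labels. Because whole embryos were used, strong binding in few cells and weak binding in many cannot be told apart. The lists hold no expression values, so the embryo label was not checked against marker genes.

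4 region lists on the ce11 genome build were used. The optimal set of the irreproducible discovery rate (IDR) procedure, which compares the ranks of regions between replicates, holds 2404 peaks. It is called the IDR set here. The candidate lists, background included, hold 30000 regions for the pooled reads, 25216 for replicate 1 and 30000 for replicate 2. Strength is the authors' signal value, which runs from 34.2 to 357.3 in the IDR set and has a median of 10.3 in the pooled list. It was compared only within a list, and rank 1 is the strongest region. The IDR set is identical to the 2404 strongest pooled regions. Membership of a peak thus follows its pooled signal and does not by itself show that the replicates agreed there. Of the IDR peaks, 50.6% were among the 2404 strongest regions of both replicates. Read depth is unknown.

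MEP-1 peaks of the IDR set were found at 3 of the 7 COMPASS genes, set-16, ash-2 and hcf-1. The set-16 window held one of the strongest peaks of the whole experiment, at rank 38, while those of ash-2 and hcf-1 held peaks at ranks 795 and 1443. By gene records, each of these 3 peaks was nearer to the 5′ end of a divergent neighbour. At wdr-5.1 and set-2 the strongest pooled region was just upstream of the gene and just below the IDR set, at ranks 2731 and 2802. cfp-1 had weak candidates only, and rbbp-5 had a single weak candidate in 1 replicate. The count of 3 is 42.9% of the genes (exact Clopper-Pearson 95% interval 9.9 to 81.6%, counting error over genes only), against 16.1% of all protein-coding genes with the same window. The 7 genes were chosen with earlier results of these data known, so this is a description and not a test. The median window of the COMPASS genes was 8134 bp, against 4027 bp for the other genes. The windows of wdr-5.1 and rbbp-5, 3500 and 3816 bp, were shorter than that of the other genes. The part of window length in this count was not tested.

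**Figure D1:**
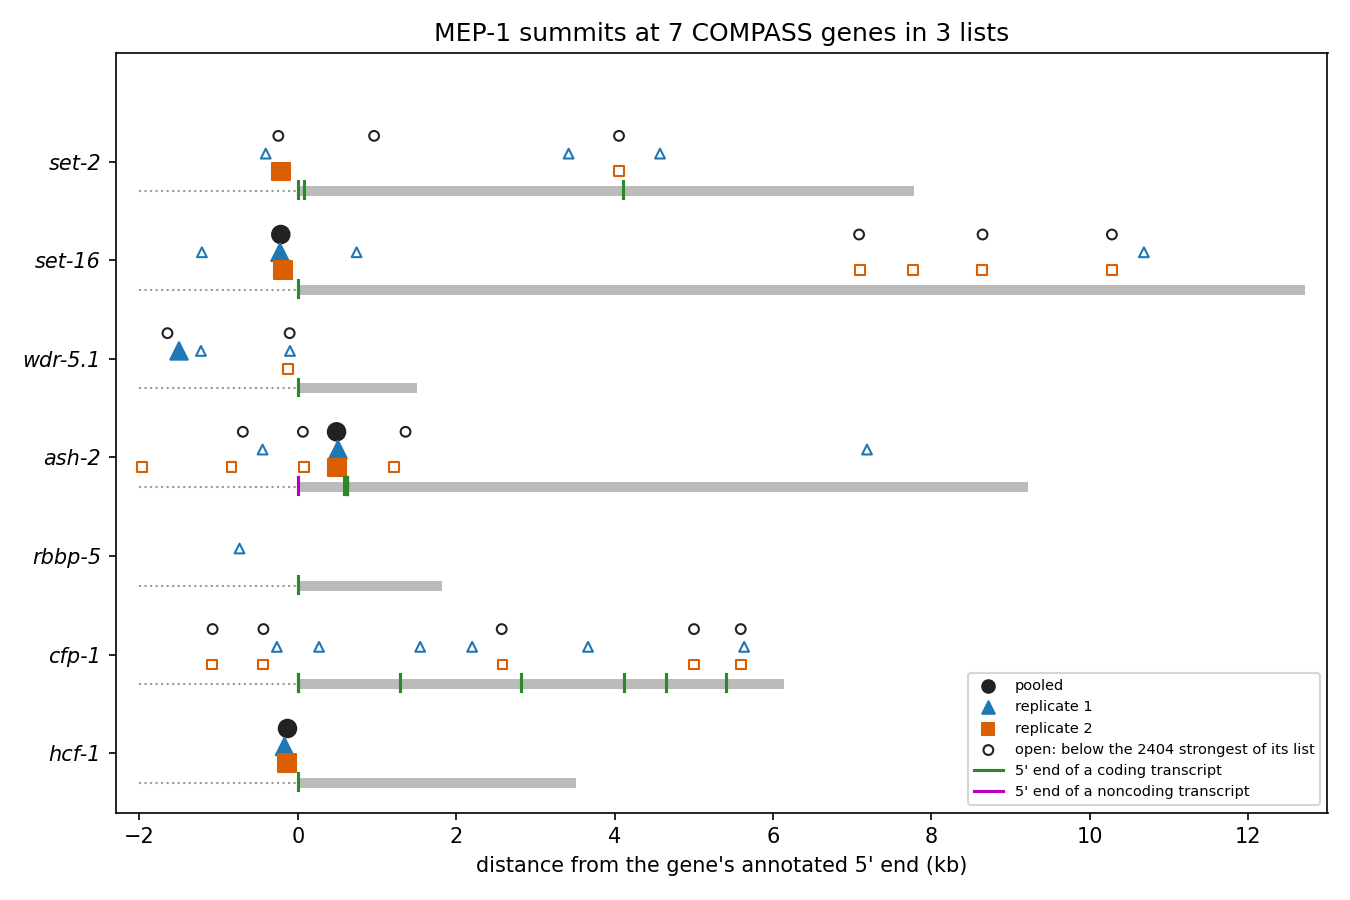
Position of every summit in the 7 gene windows, as distance from the annotated 5′ end in kb along the direction of transcription, for the pooled list (circles), replicate 1 (triangles) and replicate 2 (squares). Filled symbols are among the 2404 strongest regions of their list, open symbols are weaker, grey bars are genes, dotted lines the 2 kb upstream, and vertical ticks are transcript 5′ ends. Strong summits of all 3 lists coincide at set-16, ash-2 and hcf-1, and rbbp-5 has a single open triangle.

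The sequence under the strongest summit is shown for the 5 genes whose best pooled region lay beside a transcript start, so that the bound intervals can be compared by eye. Each is the ce11 plus strand, read 5′ to 3′ from the RefSeq copy of the assembly, with 75 bases on each side of the summit. For hcf-1 the whole gap between the gene and its neighbour swd-2.2 is given instead, because the summit lies just past it in the 5′ UTR of swd-2.2. Capitals mark GAGAGA in the set-16 sequence and TATAAA, read on the minus strand, in that of wdr-5.1, and the other sequences hold no searched motif of 6 letters.
set-16, chrIII:13643626-13643776: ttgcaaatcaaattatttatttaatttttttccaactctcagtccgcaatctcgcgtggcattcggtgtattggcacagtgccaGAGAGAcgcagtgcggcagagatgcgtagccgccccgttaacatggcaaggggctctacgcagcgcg
ash-2, chrII:11980252-11980402: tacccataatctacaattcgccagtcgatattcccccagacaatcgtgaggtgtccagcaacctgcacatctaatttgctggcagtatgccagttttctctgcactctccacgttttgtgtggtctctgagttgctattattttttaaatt
hcf-1, chrIV:7774276-7774410: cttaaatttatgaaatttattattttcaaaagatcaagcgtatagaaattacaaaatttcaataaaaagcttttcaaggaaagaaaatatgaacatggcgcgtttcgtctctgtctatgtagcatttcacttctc
wdr-5.1, chrIII:3705107-3705257: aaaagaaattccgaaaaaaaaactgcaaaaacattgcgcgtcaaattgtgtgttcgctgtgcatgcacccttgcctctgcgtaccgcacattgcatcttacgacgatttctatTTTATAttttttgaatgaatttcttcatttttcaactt
set-2, chrIII:4930375-4930525: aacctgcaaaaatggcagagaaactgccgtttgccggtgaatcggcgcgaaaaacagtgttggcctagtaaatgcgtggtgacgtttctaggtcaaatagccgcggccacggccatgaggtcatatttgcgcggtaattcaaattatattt

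Of the methyltransferase genes, set-16 (WBGene00011729, chromosome III, 13643916 to 13656637, plus strand, 12722 bp) had the stronger region in every list. Its IDR peak had a signal value of 166.6 and a summit at 13643701, in the 345 bp between set-16 and drr-2, which encodes an eIF4H-like translation factor and is transcribed the other way. The summit was 215 bp upstream of set-16 and 131 bp upstream of drr-2, so drr-2 has the nearer 5′ end and the peak is shared by a divergent pair. In all, 78 of the 19973 genes, 0.391% with set-16 included, held a pooled region at least as strong in their window.

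Both replicates placed the set-16 region alike. Replicate 1 had it at 13643691 with a signal value of 35.1 and rank 52, and replicate 2 at 13643729 with a signal value of 133.8 and rank 43. The 3 summits lay within 38 bp of each other, and the pooled region was 181 bp wide, narrower than the usual 336 bp that all but 221 of the 2404 IDR peaks have. Inside the gene the candidates were weak. The pooled list had signal values of 7.97, 13.9 and 7.31 at 7086, 8645 and 10278 bp downstream of the 5′ end, the best of them at rank 8861. Replicate 2 had summits at these same places within 9 bp and a further one at 7768 bp. Replicate 1 repeated none of them within 100 bp, and its weak summits were at 742 and 10682 bp downstream and at 1211 bp upstream, the last nearest to the 5′ end of T12D8.10.

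set-2 (WBGene00004782, chromosome III, 4922427 to 4930204, minus strand, 7778 bp), the Set1-type methyltransferase gene, had no IDR peak in its window, and the nearest one was 12.0 kb away. Its strongest pooled region had a signal value of 30.5 at rank 2802, with the summit 246 bp upstream of the gene, between set-2 and C26E6.12 on the same strand. That value is below the lowest of the IDR set, 34.21, while the highest pooled value outside the set was 34.18. Of all genes, 18% held a pooled region as strong.

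The replicates differed at the set-2 start. Replicate 2 had a signal value of 31.9 and rank 1982 at 215 bp upstream, inside the 2404 strongest of its list. In replicate 1 the nearest summit was 405 bp upstream, in the 3′ UTR of C26E6.12, 159 bp from the pooled summit, with a signal value of 3.38 and rank 13083. The set-2 start region is thus high in replicate 2 and in the pooled list, which includes the replicate 2 reads. It has no summit within 100 bp in replicate 1. The replicates also differed over the whole IDR set, to which this region does not belong. Of the 2404 IDR peaks, 84.5% had a summit within 100 bp in replicate 1 and 98.5% in replicate 2. Counting only the 2404 strongest regions of each replicate, the shares were 58.2% and 90%. The file descriptions name a control for the replicate 1 list but none for that of replicate 2, and the part of this in the difference was not tested. The strongest replicate 1 region of the gene, with a signal value of 4.16 and rank 9090, was in an intron 4573 bp downstream.

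A weak candidate within set-2 lay beside the start of its short transcript, which begins 4104 bp downstream of the annotated 5′ end. The pooled summit was 49 bp upstream of that start, with a signal value of 8.21 and rank 21906, and the replicate 2 summit was 48 bp upstream of it, with a signal value of 7.64 and rank 18759. Both values are below the median of their list, 10.3 for the pooled list and 8.77 for replicate 2. The pooled list includes the replicate 2 reads, and replicate 1 had no summit within 100 bp there. By gene records alone these intronic summits are nearest to mmab-1, since the set-2 record starts at the long transcript.

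Among the core subunit genes, ash-2 (WBGene00012458, chromosome II, 11979838 to 11989050, plus strand, 9213 bp) had an IDR peak with a signal value of 64.4 at rank 795. Its summit at 11980327 lay 489 bp inside the gene record and 483 bp upstream of Y17G7B.20, a divergent gene whose 5′ end overlaps that of ash-2. The gene record starts with a noncoding transcript, and the 4 coding transcripts start between 588 and 627 bp downstream. Measured to those, the summit was 99 bp upstream of the first coding ash-2 transcript and within an exon of the noncoding one. The peak therefore counts as nearest to Y17G7B.20 by gene records and nearest to ash-2 by transcript starts.

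Replicate 1 had the ash-2 region at 11980346 with a signal value of 15.5 and rank 698. Replicate 2 had it at 11980332 with a signal value of 50.7 and rank 855. The 3 summits lay within 19 bp, and 6.42% of all genes held a pooled region as strong. The other pooled candidates of the ash-2 window were weak, with signal values of 7.95, 10.2 and 7.33. Of these, the one 64 bp inside the gene record, at the overlapping 5′ ends, recurred in replicate 2 at 78 bp but not in replicate 1.

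wdr-5.1 (WBGene00006474, chromosome III, 3705285 to 3706784, plus strand, 1500 bp) encodes the WD40-repeat subunit of the core. Its strongest pooled region had a signal value of 31.1 and rank 2731, with the summit 103 bp upstream of the gene in the 226 bp that separate it from C14B1.3. Replicate 1 had the region at 99 bp upstream with a signal value of 5.84 and rank 4661, and replicate 2 at 124 bp upstream with a signal value of 23.1 and rank 3116. It was present in all 3 candidate lists within 25 bp and in none of them among the 2404 strongest. The nearest IDR peak to the 5′ end was 11.0 kb away.

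In replicate 1 the strongest region of the wdr-5.1 window was not this one but a region 1500 bp upstream, with a signal value of 9.26 and rank 1853. That summit lies in the coding sequence of C14B1.3, 221 bp inside it, and C14B1.3 has the nearest 5′ end. The pooled list had a weaker summit 1646 bp upstream, in the 5′ UTR of C14B1.3, with a signal value of 13.2 and rank 9654. Replicate 2 had none there. The 2 replicates thus put their strongest wdr-5.1 summit at different places.

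rbbp-5 (WBGene00017683, chromosome II, 6097830 to 6099645, plus strand, 1816 bp), the third core subunit gene, had the fewest candidates of the 7. It had 1, in replicate 1, with a signal value of 2.22 at rank 22660 of 25216, where the lowest value of the list is 2.00. Its summit was 747 bp upstream, in an intron of the divergent neighbour tpp-2, a tripeptidyl peptidase gene. The nearest pooled summit was 15.5 kb from the 5′ end, the nearest replicate 2 summit 5.02 kb and the nearest IDR peak 49997 bp. The interval without a pooled summit around the rbbp-5 5′ end was 51.7 kb long, against a median of 7.41 kb over the 19960 genes flanked by pooled summits, and 6.56% of them lay in one as long. In replicate 2 that interval was 55 kb and in replicate 1 it was 4.06 kb.

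**Figure D2:**
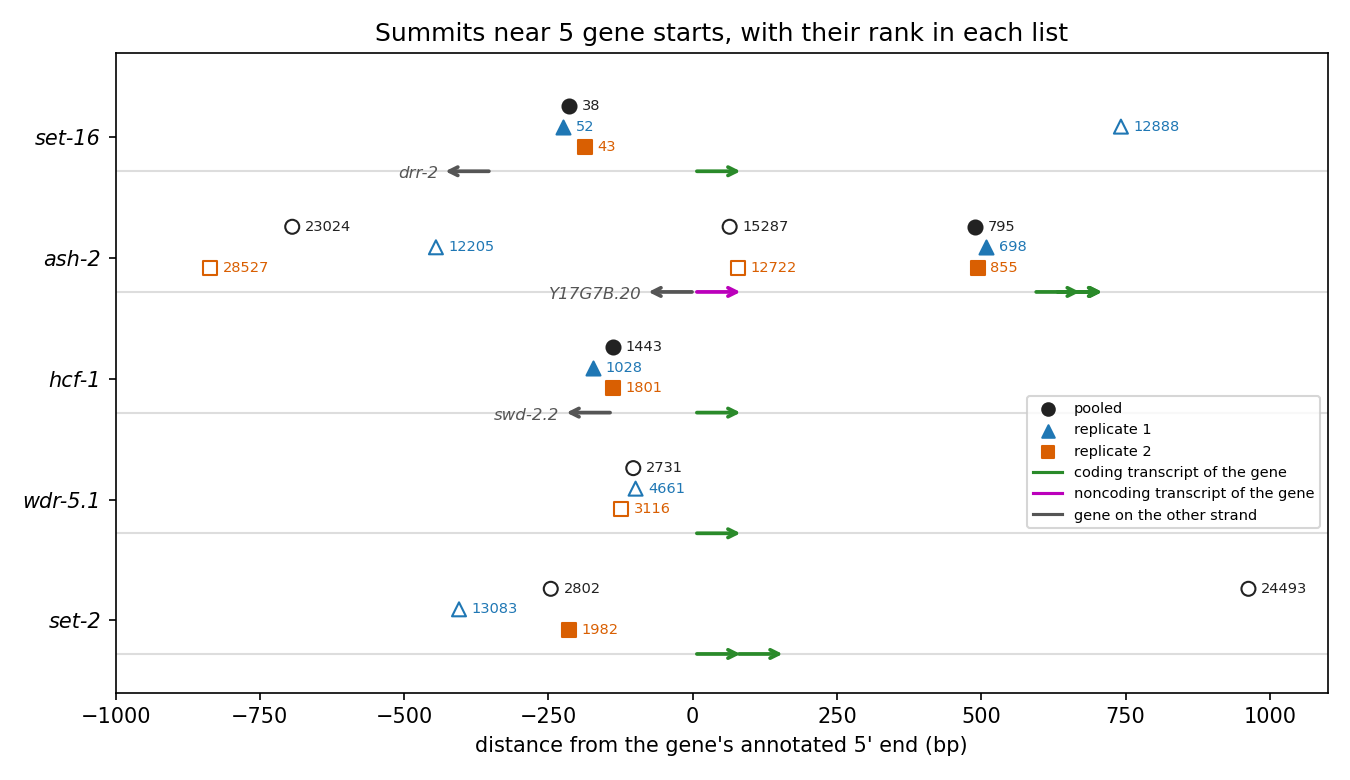
Summits around the annotated 5′ end (x axis, distance in bp along the direction of transcription) at set-16, ash-2, hcf-1, wdr-5.1 and set-2, each with its rank in its list. Symbols are as in the map of all windows, and arrows are starts of coding transcripts (green), of a noncoding transcript (magenta) and of the neighbouring gene on the other strand (grey). At set-16 and hcf-1 the strongest summit of each list stands between or at divergent starts, and a weak replicate 1 summit lies inside set-16. At ash-2 the summits precede the coding transcripts.

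cfp-1 (WBGene00009924, chromosome IV, 14077435 to 14083568, plus strand, 6134 bp) encodes the zinc-finger subunit whose mammalian counterpart binds unmethylated CpG and brings the SET1 complex to promoters. It had 5 pooled candidates with signal values between 7.82 and 14.1, 6 in replicate 1 between 2.14 and 5.36, and 5 in replicate 2 between 7.52 and 11.6. The best pooled one, at rank 8641, was in an intron 5002 bp downstream, and 33.4% of all genes held one as strong. Replicate 2 had its best at 5006 bp, rank 9147, and replicate 1 at 268 bp, rank 5588. None was in the IDR set, whose nearest peak was 6.3 kb upstream of the cfp-1 5′ end.

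Of the 8 transcripts of cfp-1, 2 share a start and the others begin at separate positions as far as 5404 bp downstream. The only cfp-1 place with a summit in both replicates was 5592 to 5635 bp downstream, in the 3′ UTR. The ranks there were 17267 in the pooled list, 17920 in replicate 1 and 17386 in replicate 2, all weak. By gene records F52B11.2 has the nearest 5′ end to this place, at 541 bp from the pooled summit, and to the best pooled summit, at 1131 bp. By transcript starts the nearest is cfp-1 itself, at 188 and 357 bp. At the cfp-1 start itself the pooled list had a signal value of 10.5 at 434 bp upstream and replicate 2 had 7.93 at 444 bp upstream. Replicate 1 had 3.53 at 264 bp upstream, which is not the same place.

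hcf-1 (WBGene00001827, chromosome IV, 7770770 to 7774275, minus strand, 3506 bp) had 1 summit in every list and no other. The IDR peak had a signal value of 47.7 at rank 1443, and its summit at 7774413 lay 138 bp upstream of hcf-1 and 2 bp inside swd-2.2, which is transcribed the other way. swd-2.2 encodes a Swd2-like protein, a WD40 subunit of COMPASS in yeast. The summits of the IDR set and of both replicates lay in the 5′ UTR of swd-2.2, beside the 135 bp that separate the genes. Replicate 1 had the region at 7774448 with a signal value of 12.7 and rank 1028, and replicate 2 at 7774414 with a signal value of 33.7 and rank 1801. The summits lay within 35 bp of each other, and 10.7% of all genes held a pooled region as strong.

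**Figure D3:**
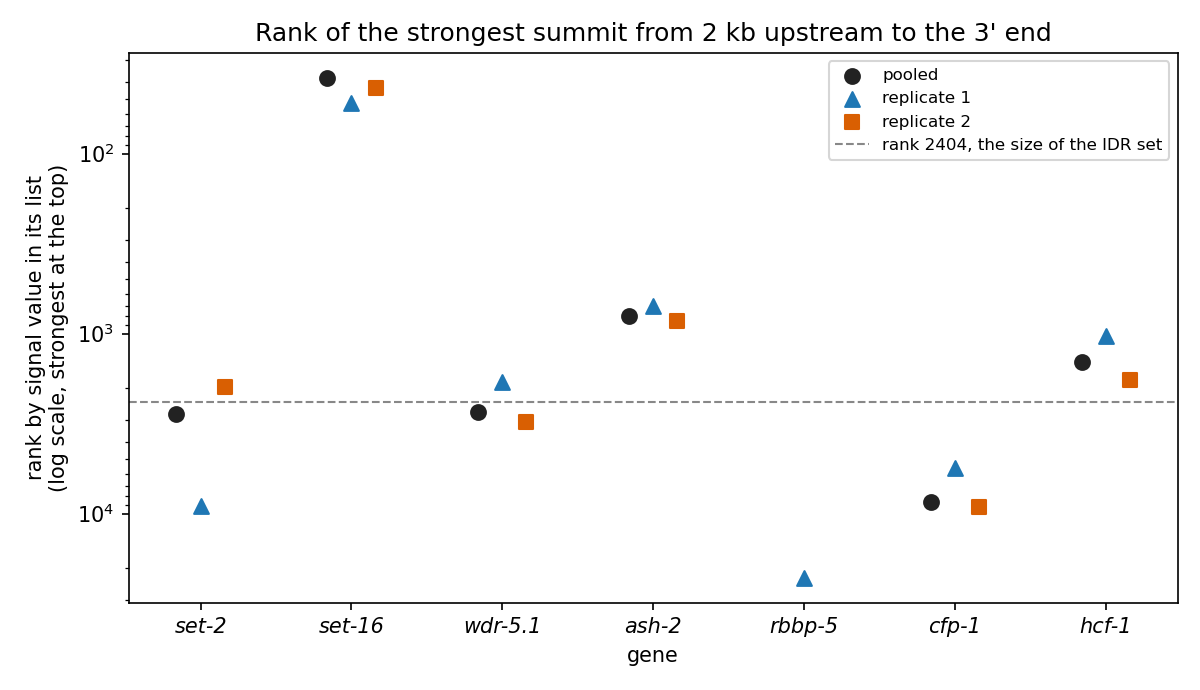
Rank by signal value (log axis, strongest at the top) of the strongest summit in each COMPASS gene window in the pooled list, replicate 1 and replicate 2. The dashed line is rank 2404, the size of the IDR set. All 3 symbols are above it at set-16, ash-2 and hcf-1, 1 replicate is above it at set-2 and at wdr-5.1, and none is at rbbp-5 and cfp-1.

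Over all 7 genes, candidate regions of any strength were common, as they were at all protein-coding genes. A candidate was present at 6 of 7 COMPASS genes in the pooled list, against 59.2% of all genes, at 7 of 7 in replicate 1, against 62.1%, and at 6 of 7 in replicate 2, against 60.2%. Among the 2404 strongest regions of replicate 1 alone, 4 COMPASS genes had a summit (set-16, wdr-5.1, ash-2 and hcf-1), against 14.3% of all genes. Among those of replicate 2 alone it was also 4 (set-2, set-16, ash-2 and hcf-1), against 15.7%. The count thus rests on set-16, ash-2 and hcf-1, which are in both, and each replicate adds a different gene. The wdr-5.1 summit added by replicate 1 is the one 1500 bp upstream, nearest to the 5′ end of C14B1.3.

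The strongest pooled value had a median of 39.4 over the 6 COMPASS genes with a pooled region, against 16.1 over the 11811 other genes with one. The COMPASS windows held 19 pooled summits, a mean of 2.71 per gene, against 1.56 per gene for the others, with windows of the unequal lengths given above. Summits within 100 bp of each other in different lists were counted as 1 place, which gave 39 places at the 7 genes. Of these places, 5 had a summit in both replicates, 16 were in replicate 1 and not 2, 14 in replicate 2 and not 1, and 4 in the pooled list only. Such places were not counted over all genes, so whether this share is particular to the COMPASS genes is unknown.

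The 5 repeated places are the start regions of set-16, ash-2, hcf-1 and wdr-5.1 and the weak 3′ UTR place of cfp-1. All 3 IDR peaks at COMPASS genes were among the 2404 strongest regions of both replicates. Of all 2404 IDR peaks, 50.6% were, and 83.3% had a summit anywhere in both candidate lists within 100 bp.

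**Figure D4:**
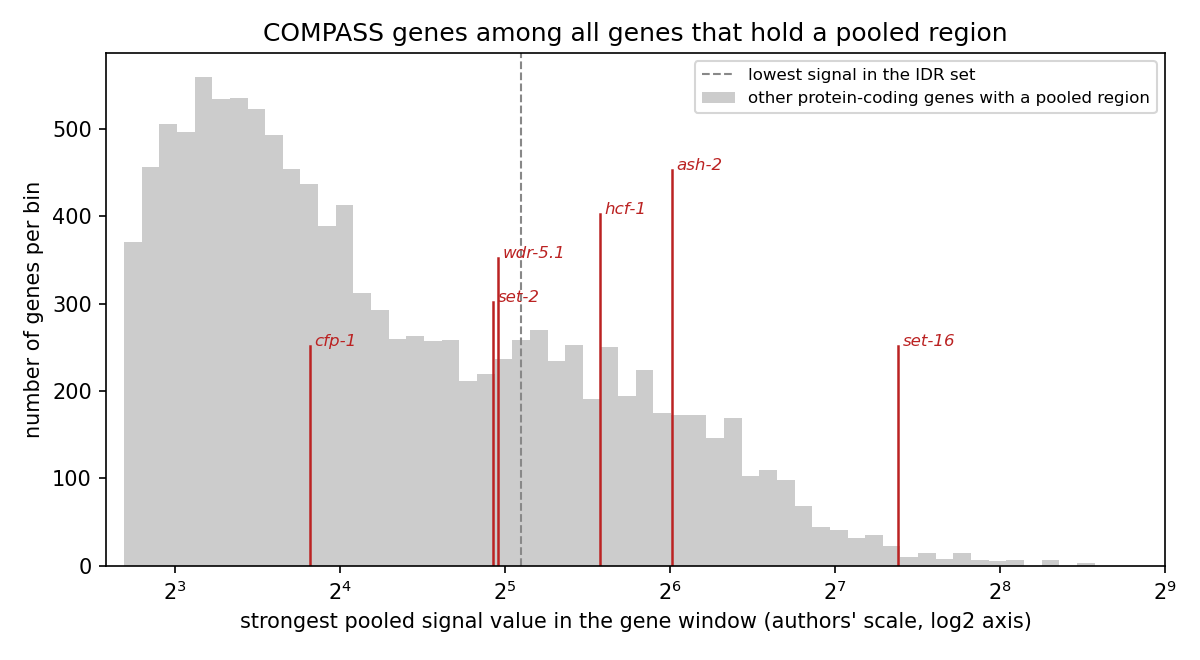
Strongest pooled signal value per gene window (log2 axis) for the 6 COMPASS genes with a pooled region (red lines, heights arbitrary) over the distribution of the other protein-coding genes with one (grey, genes per bin). The dashed line is the lowest signal value in the IDR set, 34.21. set-16 stands in the far right tail, hcf-1 and ash-2 to the right of the line, set-2 and wdr-5.1 just left of it, and cfp-1 in the bulk.

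No COMPASS gene had its own annotated 5′ end as the nearest to its IDR summit, 0 of 7 (exact upper limit 41%), against 9.92% of all genes. That limit lies above the share of all genes. Only set-16, ash-2 and hcf-1 had an IDR summit and could qualify. Among all genes, 1982 of the 3214 with an IDR summit had their own 5′ end nearest to one. The nearest 5′ ends were those of drr-2 for set-16, Y17G7B.20 for ash-2 and swd-2.2 for hcf-1. Each of these genes is on the other strand with a 5′ end within 1 kb. The fourth COMPASS gene with such a divergent neighbour, rbbp-5, had no IDR peak. set-2, wdr-5.1 and cfp-1 follow a neighbour on the same strand and had none.

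A divergent neighbour within 1 kb was present at 4 of 7 COMPASS genes, and 3 of these 4 had an IDR peak, against 0 of the other 3. Among the other protein-coding genes, 18.1% had a divergent neighbour, and 33.6% of those had an IDR peak, against 12.2% of the genes without one. A peak between divergent starts enters the windows of both genes, so these counts share peaks.

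The letters under the summits differed among the COMPASS genes. In windows of 301 bp, read on both strands, GAGAGA was in 1 of the 6 strongest pooled summits (set-16), against 47.7% of the 2404 IDR windows and 24.3% of the 27596 other pooled windows. TTTCAG was in 4 of 6 (set-16, wdr-5.1, ash-2 and hcf-1), against 32% of IDR and 41.7% of other pooled windows. CACGTG was in none, against 6.11% and 5.08%, and TATAAA in wdr-5.1 and cfp-1, against 25.2% and 27.4%. A match describes the letters only.

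CG dinucleotides, which CACGTG also contains, were counted in the same windows. set-16 had 21, and ash-2 had 8, against a median of 14 in IDR windows and 10 in other pooled windows. The remaining 4 genes had between 12 and 14. GC content was 46.5% at set-16, 30.6% at ash-2 and 29.2% at hcf-1, against a median of 40.2% in IDR windows. The 3 COMPASS genes with an IDR peak therefore span both sides of that median.

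The other genes of the pathway were counted in the same way and for comparison with further histone methylation lists. Of 7 other COMPASS and KMT2 subunit genes, 4 had an IDR summit (57.1%, against 16.1% of all genes), but these are 3 distinct peaks. dpy-30, the remaining core subunit, had a signal value of 48.2 at 391 bp upstream, and utx-1, the H3K27 demethylase of the SET-16 complex, had 49.1 at 336 bp upstream. swd-2.2 and swd-2.1 both had the hcf-1 peak in their windows, and swd-2.1 lies downstream of swd-2.2 with an overlap of 14 bp. wdr-5.2, wdr-5.3 and pis-1 had none. By gene records dpy-30, utx-1 and swd-2.2 have their own 5′ end nearest to their peak, and set-16, ash-2 and hcf-1 do not.

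Of 6 other H3K4 methyltransferase and demethylase genes, 3 had an IDR summit (50%, against 16.1% of all genes). set-30 had 54.4 at 1400 bp upstream, nearest to ZC8.6. rbr-2, a KDM5-type demethylase gene, had 47.4 at 692 bp upstream, with the noncoding gene ZK593.13 nearer at 17 bp. lsd-1, an LSD1-type demethylase gene, had 42.9 at 431 bp upstream and 46.7 at 1586 bp upstream, the stronger one nearest to nfya-1. set-17, spr-5 and amx-1 had none.

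Among 7 genes for readers of H3K4 methylation and recruited factors, 4 had an IDR summit (57.1%, against 16.1% of all genes). set-26 had 95.1 at 590 bp upstream, in the gap to the divergent gene tsr-2, which has the nearer start. nurf-1, a BPTF-like remodeller subunit gene, had 3 peaks with signal values of 78.5, 81.9 and 51.5. The peak of 78.5 lay 519 bp upstream of nurf-1, with the divergent gene kbp-3 nearer at 116 bp. The peak of 81.9 lay 283 bp upstream and that of 51.5 lay 196 bp upstream of an internal nurf-1 transcript. For the peak of 81.9 the microRNA gene cel-mir-5595 was nearer, at 140 bp. The deacetylase scaffold gene sin-3 had 68.7 at 507 bp upstream, and athp-1 had 41.9 at 458 bp downstream, 136 bp upstream of a further athp-1 transcript. set-9, isw-1 and ing-3 had none.

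The comparison lists held peaks as well. Of 7 genes for H3K36 and H3K27 methylation, 4 had an IDR summit (57.1%, against 16.1% of all genes). The signal values were 136.6 for mrg-1 (nearest to spcs-2), 93.7 for mes-2, 70.7 for mes-6 and 40.8 for met-1. Of 5 H3K9 methylation genes, arle-14 alone had one (20%, against 16.1% of all genes), at 43.7. In none of the lists were the windows matched in length to those of all genes. The COMPASS count of 3 of 7 is 1 gene below the 4 of 7 of the H3K36 and H3K27 list, and no difference between lists was tested. The set-16 signal value of 166.6 was the highest of any gene in the 6 lists.

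**Figure D5:**
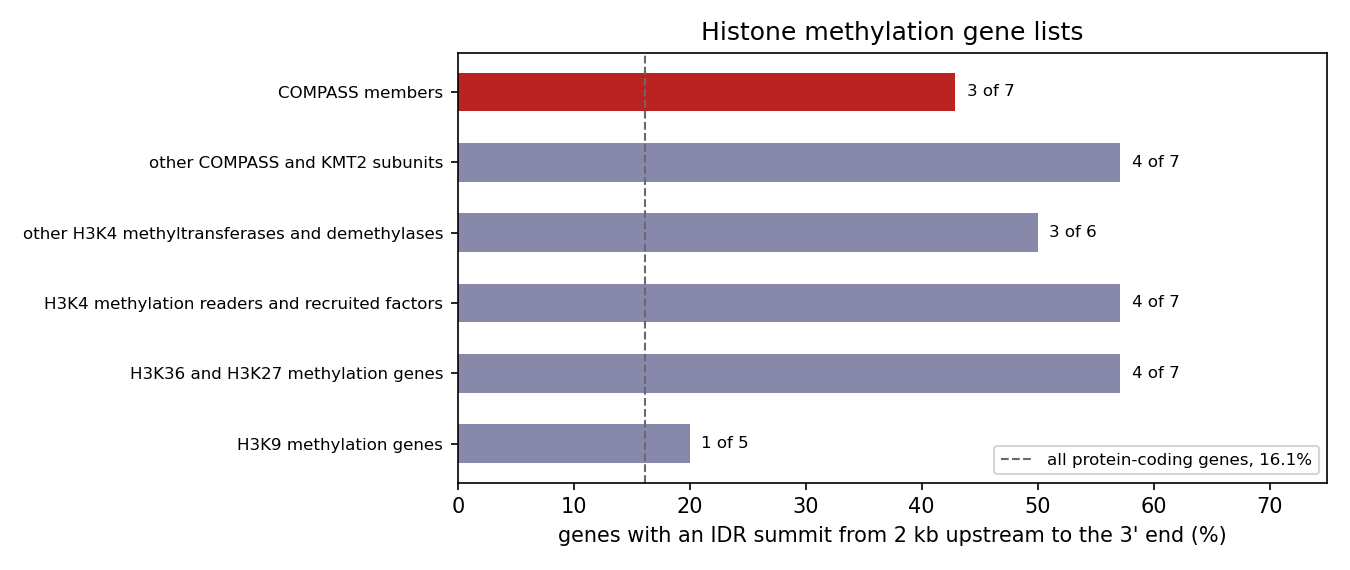
Percent of genes with an IDR summit from 2 kb upstream to the 3′ end in the COMPASS genes (red) and 5 further histone methylation lists (blue-grey), with gene counts beside the bars. The dashed line is the share of all protein-coding genes, 16.1%. The COMPASS bar stands at 42.9% and the others between 20.0% and 57.1%.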

How the data were processed

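The authors deposited narrowPeak lists per replicate, for pooled reads and for an optimal IDR set, on ce10 and ce11. Only ce11 lists (the WBcel235 assembly) were used, with Ensembl release 115 genes. Aligner, peak caller and IDR cutoff were not given in the sources used here, and read depth is unknown. The deposited signal value per region is the peak caller's strength, and the deposited −log10 q-value reaches a ceiling, so regions were ranked by signal. The antibody label names mep-1, and the description eGFP-tagged MEP-1. The file descriptions name a control for the ce11 lists of replicate 1 and of the pooled reads but not of replicate 2, so whether that list used one is unknown.

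Summits were assigned to gene windows and to the nearest protein-coding 5′ end with pandas 2.3.3. Mitochondrial genes were left out. In a test of the code, each summit planted within 2 kb upstream of a gene fell in that gene's window. The distance to the nearest 5′ end equalled that of a full search. The test does not show which gene a region belongs to. Summits within 100 bp matched between lists. Exact Clopper-Pearson 95% intervals cover counting error only. Named genes are the 7 members, the gene with the 5′ end nearest to a member summit, and list genes with an IDR summit. A further rule, for the strongest member peak nearest to its own 5′ end, named none. The 7 members and the other lists were chosen with earlier results of these data known. Alternatives changed the window, threshold, replicate, 5′ end and match rule.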

Additional observations from a re-analysis of the deposited data

How the results depend on the processing

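The 3 COMPASS genes with an IDR summit were the same with 1 kb or 5 kb upstream. Under the promoter alone (1000 bp upstream to 200 bp downstream) 2 genes were left, set-16 and hcf-1, and among the stronger 50% of IDR peaks 2, set-16 and ash-2. The share of all genes, 16.1%, moved to 13.1% with 1 kb, 22.5% with 5 kb, 11.4% with the promoter alone and 9.18% with the stronger 50%. Promoters at coding transcripts, an alternative chosen after seeing the data, gave 3 COMPASS genes and 12.0% of all genes. When a replicate was left out, the 2404 strongest regions of the remaining replicate stood in for the IDR set. This gave 4 COMPASS genes each time and between 14.3% and 15.7% of all genes. The count of COMPASS genes with their own 5′ end nearest to an IDR summit, 0, became 1 (ash-2) with the 5′ ends of all transcripts and 1 (ash-2) at coding transcripts. With the strongest regions of a single replicate in place of the IDR set, that count ranged from 0 to 1 (set-2 without replicate 1). The count of peaks repeated in both replicates, 3, became 1 (hcf-1) when regions had to overlap by 50% of both, which the narrow pooled regions of set-16 and ash-2, 181 and 92 bp wide, cannot reach against replicate 1 regions 380 bp wide. No ash-2 signal value exists under the promoter alone. The remaining alternatives changed no count by over 1.5 times. Read depth is unknown, so the weak candidates at rbbp-5 and cfp-1 and the replicate difference at set-2 could not be set against it. No paired analysis was possible because there is 1 group and no test.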
